A study of Mus musculus with 6 samples.

Results

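The genes described here are the cartilage collagens and the SOX factors that act with them, 10 of the 23622 genes in the deposited table, picked by symbol: Col2a1, Col9a3, Col10a1, Col11a1, Col11a2, Acan, Sox9, Sox5, Sox6 and Comp. Messenger RNA was measured in 6 untreated cultures of bone progenitors, taken from marrow of 2-week-old C57BL/6 mice and used at culture generation 3. The control group holds 3 wild-type cultures and the other group 3 cultures labelled Ift140-/-(cko), called cKO here, and each group has the replicate numbers 2, 3 and 4. The Ift140 protein belongs to a complex that moves cargo toward the base of the primary cilium, and the title of the series concerns osteoblast-derived Ift140 and insulin sensitivity. The labels do not name the promoter of the deleting recombinase, the sex of the mice or whether marrow was pooled. The design text calls the cultures biological replicates, and p-values measure the spread between them.

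Cartilage is built by chondrocytes. They secrete fibrils of type II collagen that carry type XI collagen in their core and type IX collagen on their surface, and they fill the space between the fibrils with aggrecan. SOX9 switches this set on, SOX5 and SOX6 bind beside it to strengthen it, and chondrocytes of the growth plate that enlarge before bone forms replace type II by type X collagen. Marrow stromal cultures hold skeletal progenitors that can enter the cartilage, bone or fat lineage.

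Levels are in FPKM, which divides reads by gene length and a total for the library, so genes can be set beside each other. The whole reads recovered behind them summed to between 16504085 and 28969957 per library. The totals used as divisors were not these sums: in cKO replicate 4 the total was 28283414, under its sum of 28969957. In cKO replicate 2 it was 17180101, above its sum of 16504085. Ift140 was at 3.11, 2.75 and 3.05 FPKM in control replicates 2, 3 and 4 and at 1.72, 1.74 and 1.90 FPKM in cKO replicates 2, 3 and 4, so the cKO mean over the whole gene was 60.2% of the control mean (log2 fold change -0.51, SE 0.07, limma adjusted p = 0.0138). That call did not hold without control replicate 4 or without cKO replicate 3, and its adjusted p was between 0.00294 and 0.0735 over 19 alternative fits. The groups also differ in sex pattern: Xist, the RNA of the silenced X chromosome, was at 0.0443 to 0.119 FPKM in the controls and 36.6 to 40.3 FPKM in cKO, and the Y-linked Eif2s3y had 3509 reads over the controls and 0 over cKO. Genotype and sex cannot be told apart in any comparison here.

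In these cultures Col2a1 was among the most abundant messages, Col11a1 followed at a mean of 61.9 to 91.2 FPKM, Col10a1 and Comp lay between 8.32 and 23.7 FPKM, and the other 6 genes were under 5 FPKM in every library. No gene of the 10 differed between the groups past the threshold of limma over all genes tested, an adjusted p under 0.05. The group means of the fibril chains lay in opposite order: Col2a1 had a mean of 198 FPKM in controls and 312 FPKM in cKO, and Col11a1 of 91.2 and 61.9 FPKM, in both cases with no overlap between the groups. In bulk RNA of such cultures fewer cells of a type and less RNA per cell cannot be told apart. Groups did not overlap in 3 of the 6 tested genes and in 35.7% of all genes tested. The test covered 6 of the 10 genes, which reached a mean of 0.5 FPKM over the 6 libraries. At an unadjusted p under 0.05 there were 3 of these 6, namely Col2a1, Col11a1 and Col11a2, beside 28.8% of the 13326 genes tested, and limma's voom on the recovered reads called 2, Col2a1 and Col11a1. Over all tested genes limma called 7.61%, with 5.04% higher and 2.57% lower in cKO. The median log2 fold change was 0.38 over the 6 genes and 0.00 over all tested genes.

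**Figure D1:**
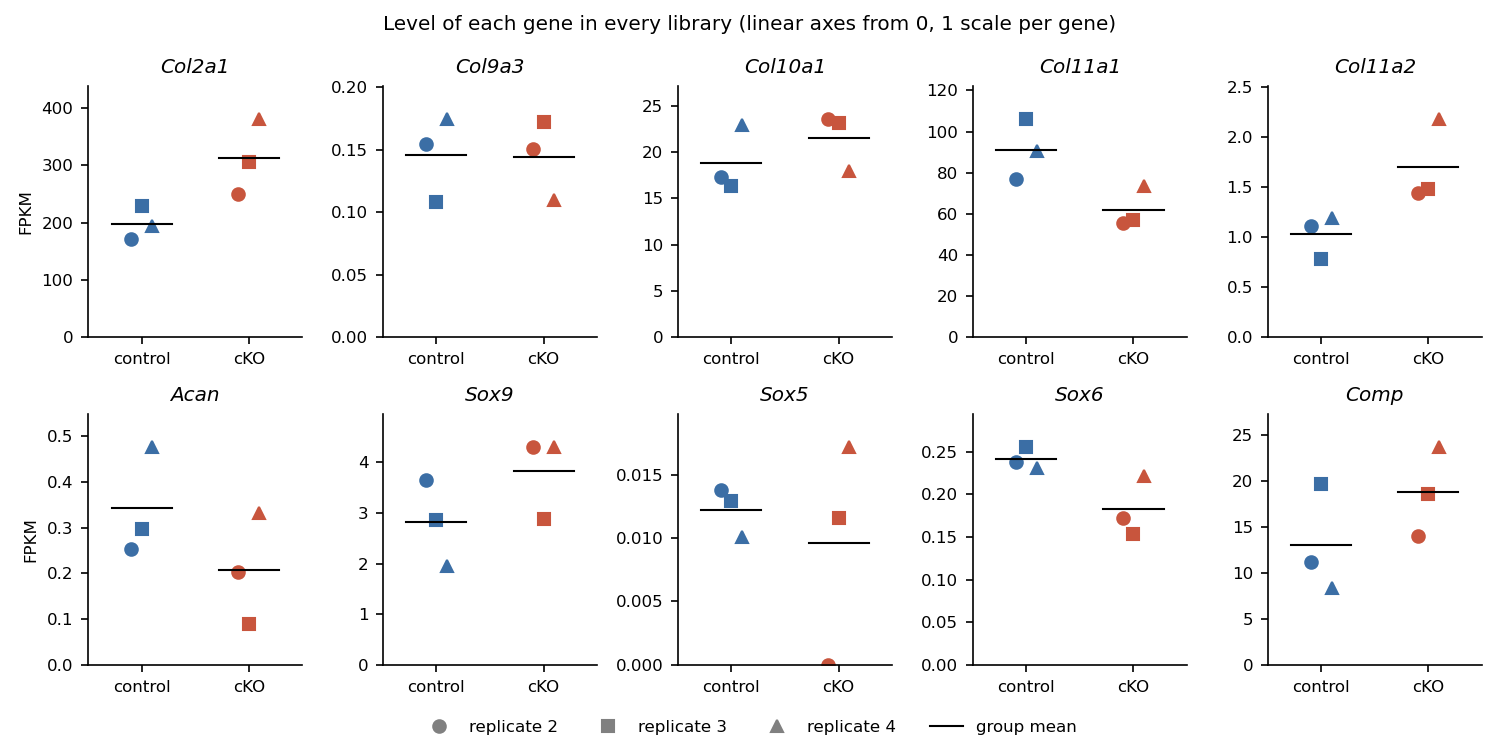
FPKM of each of the 10 genes in the 6 libraries, with a linear axis from 0 and a scale of its own for each gene; marker shapes give the replicate number and lines the group means (n = 3). Col2a1 and Col11a2 lie higher and Col11a1 and Sox6 lower in all 3 cKO libraries, while in the other 6 genes the groups overlap.

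Sox9, the factor that the cartilage set depends on, was detected at a low level. It was at 3.65, 2.87 and 1.96 FPKM in control replicates 2, 3 and 4, from 304, 256 and 168 reads, and at 4.31, 2.88 and 4.31 FPKM in cKO replicates 2, 3 and 4, from 306, 215 and 504 reads. cKO replicate 3 lay at the level of control replicate 3, so the groups overlapped. The means were 2.82 ± 0.846 and 3.83 ± 0.824 FPKM (SD, n = 3 each), a log2 fold change of 0.35 (SE 0.19, 95% interval -0.12 to 0.81, limma adjusted p = 0.288). Without control replicate 4, the lowest library, the log2 fold change was 0.17, the smallest of 19 alternative fits. The largest was 0.52, with library weights. Sox9 passed in none of these fits, where its limma adjusted p was 0.0881 to 0.596. Sox9 spans 112782224 to 112787760 of chromosome 11 (plus strand, GRCm38) and has up to 3 exons in GENCODE vM21.

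Sox5 and Sox6, whose proteins pair with each other and bind beside SOX9, were under the filter and were not tested. Sox5, a gene of 14376 exonic bases at 143828425 to 144781977 of chromosome 6 (minus strand), had 4, 4 and 3 reads in control replicates 2, 3 and 4 and 0, 3 and 7 reads in cKO replicates 2, 3 and 4. A count of 0 in cKO replicate 2 allows a level of up to 0.0121 FPKM, a floor of 3 reads that covers counting error only, and no difference was detectable at this depth. An antisense gene, Sox5os1, shares 1330 exonic bases with Sox5, and without strand their reads cannot be told apart. Sox6, at 115470872 to 116038796 of chromosome 7 (minus strand), was at 0.237, 0.256 and 0.230 FPKM in the controls and 0.173, 0.153 and 0.222 FPKM in cKO, from 41 to 93 reads per library. All 3 cKO libraries lay below the controls, cKO replicate 4 just so, with a 2-sided exact permutation p of 0.1, the smallest that 3 against 3 can give. Of the 10101 genes with a value under the filter 10.8% had groups that did not overlap, 5.25% with cKO lower.

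Among other SOX genes, of 7 tested relatives of the SoxC, SoxD, SoxE and SoxF groups, 2 rose and 1 fell. Sox4 rose from 21.6 ± 0.462 to 40.4 ± 5.32 FPKM (1.87-fold, 0.86 in log2 fold change, SE 0.09, limma adjusted p = 0.00849) and Sox12 from 4.98 ± 0.716 to 8.15 ± 1.37 FPKM (adjusted p = 0.0412). Sox11 fell from 3.26 ± 0.385 to 1.32 ± 0.365 FPKM (-0.89 in log2 fold change, SE 0.13, adjusted p = 0.0164). These 3 are the SoxC group, factors of progenitor cells, and they did not share a direction. After a GC correction, which takes out each trend of a library with base composition, Sox12 lost its call (log2 fold change 0.36, adjusted p = 0.110). Without control replicate 4 none of the 3 passed (adjusted p = 0.0514 to 0.131), Sox11 did not without cKO replicate 2 (0.0509), and Sox12 did not whichever library other than control replicate 3 was left out (0.0665 to 0.131). The genes nearest to Sox9 in pattern, by root mean square difference of centred log2(FPKM + 1) over 6 libraries among 7009 genes, were Trim68 (0.129), Pkmyt1 (0.139) and Thap11 (0.142), against a spread of Sox9 itself of 0.298.

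Col2a1, which encodes the chain of type II collagen and is a direct target of SOX9, was the most abundant of the 10 genes. It was at 172, 229 and 194 FPKM in control replicates 2, 3 and 4, from 20797, 29660 and 24167 reads, and at 249.7, 306 and 381 FPKM in cKO replicates 2, 3 and 4, from 25743, 33105 and 64668 reads. The lowest cKO library lay above the highest control, and the ranks among all genes of the table were 168 to 240 in controls and 91 to 146 in cKO. The means were 198 ± 28.8 and 312 ± 65.9 FPKM (SD, n = 3), 1.57-fold, with a log2 fold change of 0.64 (SE 0.17, 95% interval 0.23 to 1.05, limma adjusted p = 0.0695), so the gene did not pass. With voom on the recovered reads it passed at nearly the same size (log2 fold change 0.64, limma adjusted p = 0.0394), as it did with library weights (adjusted p = 0.0210), and over 19 alternative fits the adjusted p ranged up to 0.252. Groups that did not overlap with cKO higher made up 17.9% of all tested genes. Col2a1 spans 97975602 to 98004695 of chromosome 15 (minus strand) and has up to 54 exons. The FPKM rests on a length of 6001 bases, shorter than the 9243 bases of the exon union in GENCODE vM21.

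The Col2a1 difference was smaller once GC trends had been removed library by library. The longest transcript of Col2a1 has a GC content of 62.2%. Over all tested genes the median log2 fold change was -0.07 for 3397 genes under 45% GC and 0.29 for 449 genes of 60 to 63% GC. With the correction the Col2a1 log2 fold change was 0.33 (SE 0.16, limma adjusted p = 0.252), and that of Col11a1, a gene of 48.0% GC, was -0.53 against -0.55 before. The bins and the placing of the genes among them are shown in the plot of differences against GC content.

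**Figure D2:**
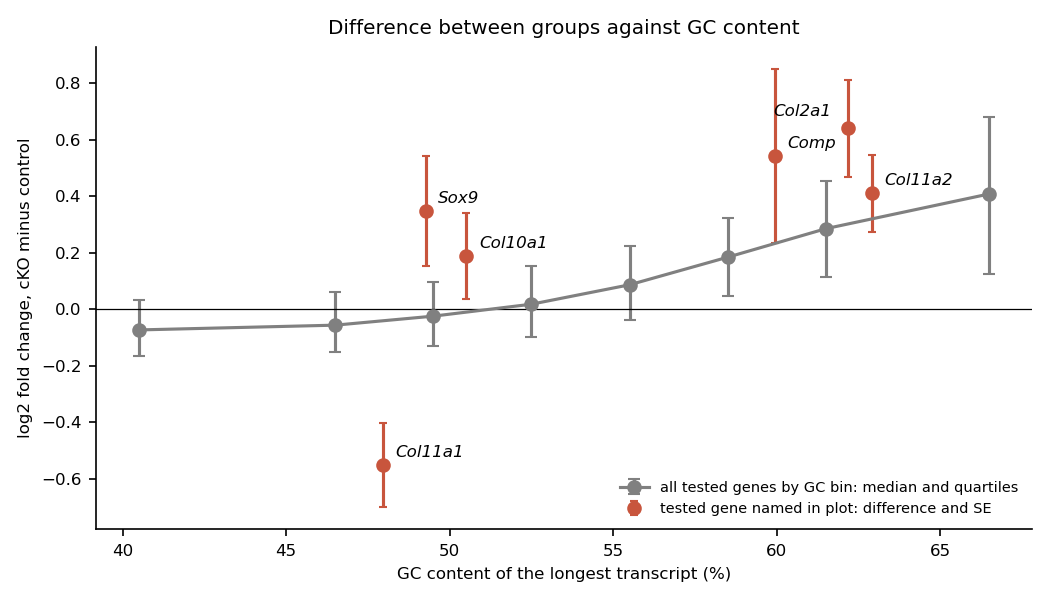
Log2 fold change (cKO minus control, log2(FPKM + 1) scale) against the GC content of the longest transcript: grey points are medians of all tested genes in 8 bins with bars for quartiles, and red points are the 6 tested genes with SE. Col2a1, Comp and Col11a2 sit at 59.9% to 62.9% GC, where the median of all genes is above 0, and Col11a1 at 48.0%, where it is not.

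Col11a1 and Col11a2 encode chains of type XI collagen, which sits in the fibril core and limits fibril width. Col11a1 was at 77.0, 106 and 90.5 FPKM in control replicates 2, 3 and 4 and at 55.4, 57.0 and 73.3 FPKM in cKO replicates 2, 3 and 4. Each cKO library lay below each control, and the highest value was that of control replicate 3. The means were 91.2 ± 14.6 and 61.9 ± 9.89 FPKM (SD, n = 3), so cKO was at 67.9% of controls, with a log2 fold change of -0.55 (SE 0.15, 95% interval -0.91 to -0.20, limma adjusted p = 0.0706). It passed with voom (adjusted p = 0.0403), with library weights (0.0147) and after quantile normalization (0.0420), and reached at most 0.190 over 19 alternative fits. With cKO lower the groups did not overlap in 17.8% of all tested genes. Col11a1 spans 114030540 to 114220718 of chromosome 3 (plus strand), with up to 67 exons.

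Col11a2 was far scarcer, at 1.11, 0.780 and 1.19 FPKM in control replicates 2, 3 and 4, from 153, 115 and 169 reads. In cKO replicates 2, 3 and 4 it was at 1.44, 1.48 and 2.18 FPKM, from 169, 183 and 422 reads. All cKO libraries were above all controls, with cKO replicate 4 highest. The means were 1.03 ± 0.218 and 1.70 ± 0.417 FPKM, 1.66-fold, with a log2 fold change of 0.41 (SE 0.14, 95% interval 0.08 to 0.73, limma adjusted p = 0.111). The gene has a GC content of 62.9%, and after the GC correction the log2 fold change was 0.08 (SE 0.10, adjusted p = 0.676). With voom, whose scale does not damp low genes, it was 0.78 (SE 0.22, adjusted p = 0.0582). It did not pass in any of the 19 alternative fits. Col11a2 spans 34039437 to 34066685 of chromosome 17 (plus strand), with up to 66 exons.

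The start regions of the paralogs Col11a1 and Col11a2 are shown because their levels were so unlike, and that of Col10a1 as a cartilage collagen outside the fibrils. Neither paralog passed the test between the groups, and nothing is read from these letters about it. The sequences are RefSeq promoter windows of GRCm38.p6 with 250 bases before and 50 after the start, and 6 of the 10 genes had an entry. The RefSeq start of Col11a2 lies upstream of its GENCODE start. Capitals mark a match on either strand to GGGCGG (the box of Sp factors), to TATAAA (the TATA box), or to a form of the SOX site, which is ACAAAG in one case and AACAAT in the other.
Col11a1 promoter, plus strand, chr3:114030290-114030589: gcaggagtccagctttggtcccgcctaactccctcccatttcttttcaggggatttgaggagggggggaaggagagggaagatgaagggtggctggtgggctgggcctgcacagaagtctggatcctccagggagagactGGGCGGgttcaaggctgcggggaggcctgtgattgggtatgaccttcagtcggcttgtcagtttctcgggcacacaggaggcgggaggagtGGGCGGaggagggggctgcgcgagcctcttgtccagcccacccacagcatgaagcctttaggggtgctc
Col11a2 promoter, plus strand, chr17:34038888-34039187: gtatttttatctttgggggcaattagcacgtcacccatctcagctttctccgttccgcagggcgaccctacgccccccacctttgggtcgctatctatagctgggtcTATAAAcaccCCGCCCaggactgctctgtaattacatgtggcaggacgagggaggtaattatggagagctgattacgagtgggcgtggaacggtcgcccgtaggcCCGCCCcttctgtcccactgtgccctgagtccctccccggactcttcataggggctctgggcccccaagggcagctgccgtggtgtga
Col10a1 promoter, plus strand, chr10:34389731-34390030: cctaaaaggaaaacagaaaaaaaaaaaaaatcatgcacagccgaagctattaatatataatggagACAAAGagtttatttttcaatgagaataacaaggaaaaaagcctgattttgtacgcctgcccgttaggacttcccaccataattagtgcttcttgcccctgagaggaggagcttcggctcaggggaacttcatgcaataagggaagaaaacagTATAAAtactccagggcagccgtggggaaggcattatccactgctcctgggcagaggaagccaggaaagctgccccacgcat
The Col11a1 window held 2 matches to GGGCGG and none to TATAAA, while the Col11a2 window held 2 to GGGCGG, read as CCGCCC on this strand, and 1 to TATAAA. The Col10a1 window held 1 match to TATAAA, 1 to ACAAAG and none to GGGCGG. Over all 32851 promoter windows 35.7% held GGGCGG, 13.6% TATAAA, 18.7% ACAAAG and 10.7% AACAAT. A match here is a string of letters, not a measured site.

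The proportions of the fibril chain messages to each other differed between the groups. The ratio of Col2a1 to Col11a1 was 2.23, 2.16 and 2.14 in control replicates 2, 3 and 4, a narrow range although both levels varied among these libraries. It was 4.50, 5.36 and 5.20 in cKO replicates 2, 3 and 4, so the groups lay well apart. The ratio of Col2a1 to Col1a1, the main chain of bone collagen, was 0.0547 to 0.0745 in controls and 0.113 to 0.131 in cKO. The ratio of Col11a2 to Col11a1 was 0.00735 to 0.0144 in controls and 0.0260 to 0.0298 in cKO. Outside the fibril chains, the ratio of Col2a1 to Sox9 overlapped between the groups, at 47.1 to 99.1 in controls and 58.0 to 106 in cKO. Of the summed FPKM of 11 fibrillar collagen genes Col2a1 made up 3.01% to 3.91% in controls and 5.95% to 7.05% in cKO, and Col11a1 1.35% to 1.81% and 1.24% to 1.32%. These ratios were chosen after their values were seen and carry no test, and a ratio shows unequal change without saying which gene moved. They were not GC-corrected, and Col2a1 and Col11a2 are at 62.2% and 62.9% GC against 48.0% for Col11a1. The GC correction took the log2 fold change of Col2a1 from 0.64 to 0.33 and of Col11a2 from 0.41 to 0.08. It left that of Col11a1 at -0.53.

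**Figure D3:**
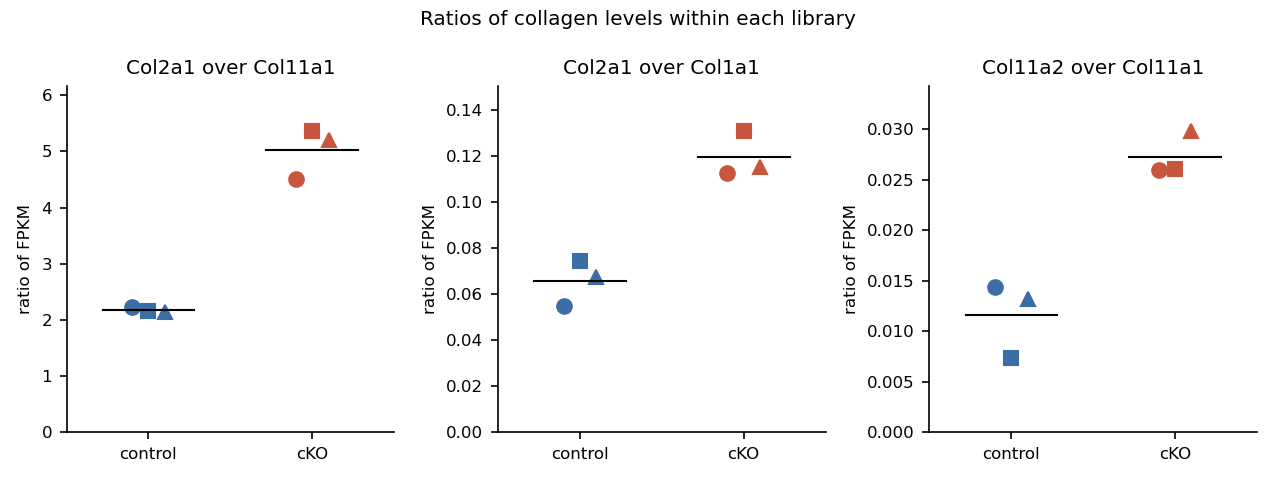
Ratios of FPKM within each library for 3 pairs of collagen genes, on linear axes from 0, with marker shapes for replicates 2 (circle), 3 (square) and 4 (triangle) and lines for group means. In each pair all 3 cKO libraries lie above all 3 controls, and for Col2a1 over Col11a1 the controls span only 2.14 to 2.23.

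Fibrillar collagens outside the cartilage set had lower means in cKO in all 7 tested genes, with 2 falls and no rise past the threshold. Col5a2, whose chain joins those of Col11a1 in mixed type V and XI fibrils, fell from 406 ± 6.66 to 259 ± 33.9 FPKM (-0.65 in log2 fold change, SE 0.10, limma adjusted p = 0.0173), and Col3a1 from 314 ± 16.2 to 212 ± 22.9 FPKM (adjusted p = 0.0201). The median log2 fold change of the 7 was -0.25, against 0.64 for Col2a1 and -0.55 for Col11a1. Without control replicate 4 neither passed (adjusted p = 0.0793 and 0.0894), nor without cKO replicate 3 (0.0712 and 0.0809), and Col3a1 did not without cKO replicate 2 (0.0636).

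Col9a3, a chain of the type IX collagen that coats the fibril, was close to the floor. It had 12, 9 and 14 reads in control replicates 2, 3 and 4 and 10, 12 and 12 in cKO replicates 2, 3 and 4, at means of 0.146 ± 0.0342 and 0.145 ± 0.0317 FPKM. The groups overlapped fully, and the gene was under the filter. Col9a3 spans 180597790 to 180622189 of chromosome 2 (plus strand). Its partner chains were also under the filter, Col9a1 with at most 0.0190 FPKM in any library and Col9a2 with 0.124 to 0.545 FPKM (named after their values were seen). Col9a3 shares 234 exonic bases with Tcfl5 on the other strand, at up to 1.69 FPKM, and without strand the reads of the shared bases cannot be told apart.

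Col10a1, the collagen of enlarged growth plate chondrocytes, was expressed in both groups. The gene spans 34389981 to 34397085 of chromosome 10 (plus strand) and shares 18 exonic bases with Nt5dc1 on the other strand. It was at 17.3, 16.4 and 22.9 FPKM in control replicates 2, 3 and 4 and at 23.6, 23.2 and 17.9 FPKM in cKO replicates 2, 3 and 4. Control replicate 4 and cKO replicate 4 fell within the range of the other group. The means were 18.9 ± 3.54 and 21.6 ± 3.17 FPKM, with a log2 fold change of 0.19 (SE 0.15, 95% interval -0.17 to 0.55, limma adjusted p = 0.456). It did not pass in any of 19 alternative fits, where its adjusted p was 0.241 to 0.810. The log2 fold change was 0.10 without control replicate 3, 0.12 without cKO replicate 2, 0.33 without control replicate 4, 0.31 without cKO replicate 4 and 0.05 with library weights.

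Genes of hypertrophic cartilage and mineral were present beside Col10a1, and many of them are osteoblast genes as well. None of 7 tested genes passed by limma, while their median log2 fold change was 0.26. Those with the smallest p were Spp1 (osteopontin), at 173 ± 11.8 and 251 ± 42.1 FPKM (adjusted p = 0.0553), and Vegfa, the vessel growth factor, at 106 ± 9.41 and 83.5 ± 8.32 FPKM (adjusted p = 0.0780). At an unadjusted p under 0.05 there were 2 of the 7, these same genes, and voom called 1, Spp1 (adjusted p = 0.0287).

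Acan encodes aggrecan, the proteoglycan that holds water in cartilage, and Comp a pentameric matrix protein that links collagen fibrils in cartilage, tendon and ligament. Acan was at 0.252, 0.298 and 0.477 FPKM in control replicates 2, 3 and 4 and at 0.203, 0.0890 and 0.331 FPKM in cKO replicates 2, 3 and 4, from 12 to 74 reads per library. The groups overlapped, with a 2-sided exact permutation p of 0.3, and the gene, at 79053483 to 79115099 of chromosome 7 (plus strand), was under the filter. Per length, Col2a1 was at 406 to 769 times the Acan level in controls and 1150 to 3434 times in cKO, where the highest ratio rests on the 12 reads of Acan in cKO replicate 3.

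Comp, at 70373558 to 70382066 of chromosome 8 (plus strand), had the largest SE of the 6 tested genes. It was at 11.2, 19.6 and 8.32 FPKM in control replicates 2, 3 and 4 and at 13.9, 18.6 and 23.7 FPKM in cKO replicates 2, 3 and 4. Control replicate 3 lay within the cKO range and the other controls below it. The means were 13.0 ± 5.87 and 18.7 ± 4.88 FPKM, 1.44-fold, with a log2 fold change of 0.54 (SE 0.31, 95% interval -0.19 to 1.28, limma adjusted p = 0.295). Without control replicate 3 the log2 fold change was 0.86 (adjusted p = 0.0710), without control replicate 4 it was 0.29 (0.607), and with library weights, which gave control replicate 4 a weight of 3.29 and control replicate 3 one of 0.386, it was 0.84 and passed (0.0471). The osteoblast markers (8 of 8 in the table) had a summed level of 376 FPKM in control replicate 3 against 141 and 173 FPKM in the other controls and 244 to 405 FPKM in cKO. Their part in the level of Comp was not tested. After the GC correction the log2 fold change of Comp, a gene of 59.9% GC, was 0.30 (adjusted p = 0.589).

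**Figure D4:**
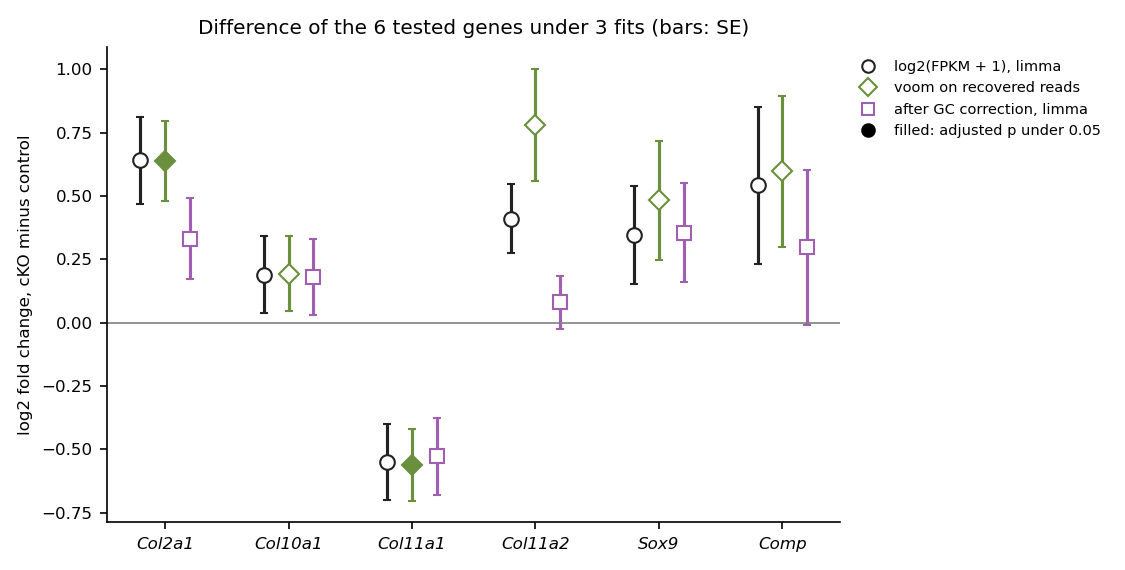
Log2 fold change (cKO minus control) of the 6 tested genes with SE bars under 3 fits: limma on log2(FPKM + 1), voom on recovered reads, and limma after the GC correction, with filled markers for an adjusted p under 0.05. Filled markers are seen for Col2a1 and Col11a1 with voom, and the GC correction brings Col2a1 to 0.33, Col11a2 to 0.08 and Comp to 0.30.

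Of 3 tested thrombospondin relatives of Comp 1 fell, Thbs2, from 865 ± 54.4 to 574 ± 45.1 FPKM (-0.59 in log2 fold change, SE 0.09, limma adjusted p = 0.0162). The 1 relative under the filter, Thbs4, named after its values were seen, had 0 reads in each control and 23, 4 and 11 reads in cKO replicates 2, 3 and 4. Both tested relatives of Acan fell, namely Vcan, the versican of loose matrix, from 5.66 ± 1.96 to 2.57 ± 0.254 FPKM (adjusted p = 0.0442), and Bcan, the brevican known from brain, from 2.06 ± 0.0281 to 1.40 ± 0.133 FPKM (adjusted p = 0.0381). None of these 3 calls held without control replicate 4 (adjusted p = 0.0764 to 0.136), cKO replicate 2 (0.0576 to 0.120) or cKO replicate 3 (0.0682 to 0.121), that of Vcan was also lost without cKO replicate 4 (0.0977), that of Bcan was lost whichever library was left out (adjusted p = 0.0613 to 0.136), and after the GC correction that of Vcan was lost (log2 fold change -0.81, adjusted p = 0.0596).

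Matrix genes particular to cartilage were scarce beyond the 10. Of 16 further genes, 12 had a row in the table and 3 reached the filter, and none of these passed by limma (at an unadjusted p under 0.05 there were 2, Matn3 and Matn4, and voom called 1, Matn4, with an adjusted p of 0.0339). Matn4 (matrilin) was at 1.25 ± 0.295 and 2.80 ± 0.854 FPKM (limma adjusted p = 0.0610) and Matn3 at 1.12 ± 0.0844 and 0.826 ± 0.0178 FPKM (0.128). The list of chondrocyte markers had 9 of its 11 genes in the table, of which 6 had a mean under 0.5 FPKM and 2, Col2a1 and Sox9, a mean of at least 1 FPKM. Its summed level was 177 to 234 FPKM in controls and 256 to 387 FPKM in cKO, nearly all of it Col2a1. Acan and the type IX collagen genes, which also define chondrocytes, reached at most 0.545 FPKM in any library.

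Among 12 tested chondrocyte transcription factors and SOX9 partners 3 rose and none fell. Nkx3-2, a repressor that keeps chondrocytes from enlarging, rose from 1.42 ± 0.233 to 4.83 ± 0.563 FPKM (3.40-fold, 1.27 in log2 fold change, SE 0.10, limma adjusted p = 0.00527), with 1.21, 1.67 and 1.37 FPKM in control replicates 2, 3 and 4 and 4.20, 5.00 and 5.29 FPKM in cKO replicates 2, 3 and 4. It kept its call whichever library was left out and after the GC correction (log2 fold change 0.82, adjusted p = 0.0175). Zfp219, a cofactor of SOX9, rose from 12.4 ± 1.06 to 18.2 ± 1.52 FPKM (adjusted p = 0.0218) and Pitx1, a hindlimb factor, from 15.4 to 17.8 FPKM over the controls to 21.2 to 23.3 FPKM over cKO (adjusted p = 0.0243). After the GC correction these last calls were lost, with log2 fold changes of 0.21 for Zfp219 and 0.00 for Pitx1, and both were also lost without control replicate 4 (adjusted p = 0.0839 and 0.0991), cKO replicate 3 (0.0727 and 0.0628) or cKO replicate 4 (0.0545 and 0.0703), and that of Pitx1 without cKO replicate 2 (0.0784).

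Of 12 tested growth plate signals and receptors 1 rose and 1 fell. Bmp6, a bone morphogenetic protein made by enlarging chondrocytes, rose from 1.99 ± 0.414 to 4.39 ± 0.404 FPKM (0.86 in log2 fold change, SE 0.12, limma adjusted p = 0.0139). Prkg2, a kinase that acts on SOX9 in the growth plate, fell from 1.44 ± 0.127 to 0.660 ± 0.0827 FPKM (-0.56 in log2 fold change, SE 0.08, adjusted p = 0.0173). Among 6 tested matrix proteases and inhibitors 2 fell and none rose. These were Adamts12, a protease that acts on COMP, from 37.1 ± 0.860 to 20.3 ± 1.24 FPKM (-0.84 in log2 fold change, SE 0.06, adjusted p = 0.00349), and the aggrecanase Adamts4 from 10.8 ± 1.03 to 6.75 ± 0.652 FPKM (adjusted p = 0.0182). Without control replicate 4 Bmp6 (adjusted p = 0.0622), Prkg2 (0.0756) and Adamts4 (0.0824) did not pass, without cKO replicate 3 Prkg2 (0.0638) and Adamts4 (0.0606) did not, and without cKO replicate 4 Prkg2 did not (0.0524).

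Enzymes that sulphate and build chondroitin, the sugar chain of aggrecan, were all expressed, 18 of 18 tested, with 3 rises, no fall and a median log2 fold change of 0.01. Chpf, a chondroitin polymerising factor, rose from 99.0 ± 7.78 to 171 ± 13.3 FPKM (1.73-fold, limma adjusted p = 0.00867), Xylt2, which starts the chain, from 28.7 ± 3.29 to 40.7 ± 1.44 FPKM (adjusted p = 0.0249), and B3gat3, a linker enzyme, from 39.9 ± 0.983 to 49.3 ± 2.06 FPKM (adjusted p = 0.0299). After the GC correction Chpf passed (log2 fold change 0.60) and the others did not (0.24 and 0.00). Without control replicate 4 Xylt2 and B3gat3 did not pass (adjusted p = 0.108 and 0.125), nor without any 1 of the cKO libraries (0.0609 to 0.107), and B3gat3 did not without control replicate 2 (0.0590). Over all tested genes limma called 7.61%, and the 10 lists, with their tested numbers given above, were chosen with earlier results known. Over the 10 lists 18 genes were called, and 3 of them, Nkx3-2, Adamts12 and Chpf, kept their call whichever library was left out. Of the 18, 3 kept it without control replicate 4, 6 without cKO replicate 3, 9 without cKO replicate 2, 10 without cKO replicate 4, 15 without control replicate 2 and 17 without control replicate 3.

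**Figure D5:**
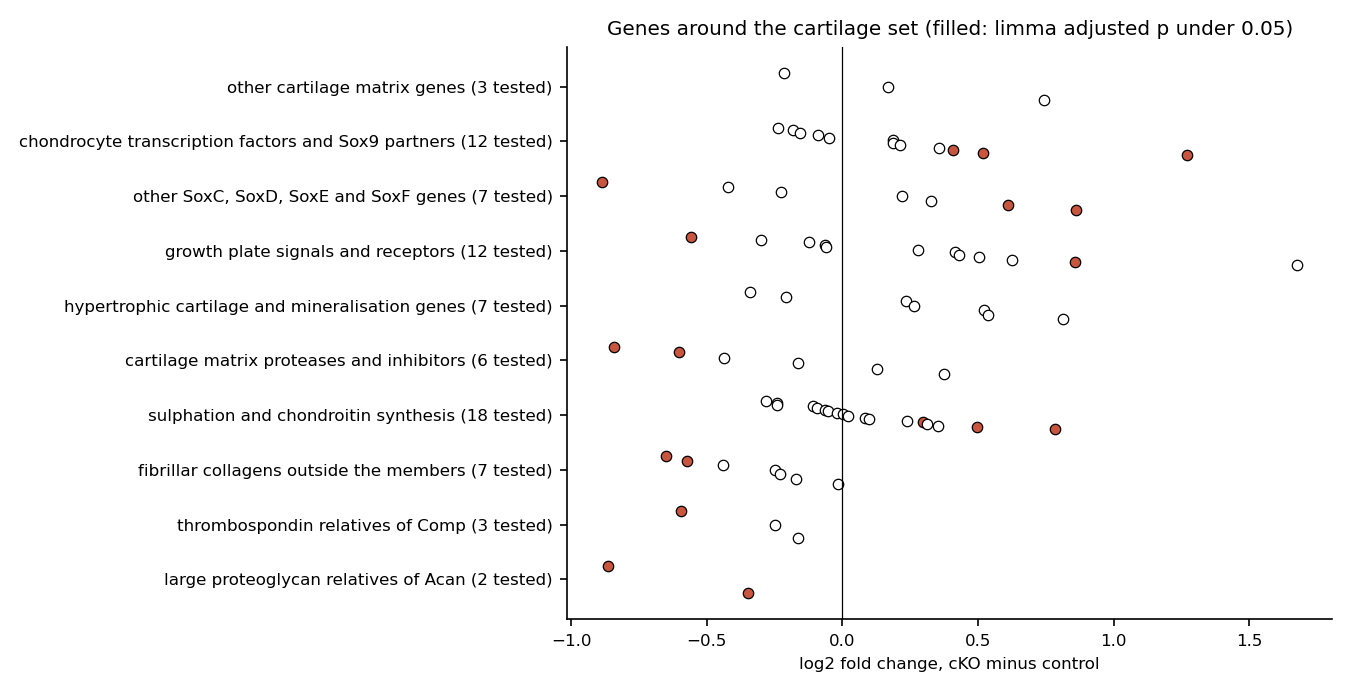
Log2 fold change (cKO minus control) of the tested genes of 10 lists around the cartilage set, 1 point per gene, filled for a limma adjusted p under 0.05. All tested fibrillar collagens outside the 10 genes lie below 0, and the 3 called chondrocyte factors lie above 0.

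Markers of most other listed cell types were present in both groups, while lymphocyte markers were low and erythroid markers close to the floor. Summed over their lists, granulocyte markers (8 of 8 in the table) were at 5.71 to 42.6 FPKM in controls and 85.7 to 263 FPKM in cKO, and adipocyte markers (7 of 7) at 96.2 to 123 and 234 to 254 FPKM. Most of the adipocyte sum was Cebpa, at means of 88.5 and 221 FPKM, a gene that other cells also express. Pparg was at 16.0 and 16.2 FPKM (limma adjusted p = 0.936) and Fabp4 at 3.40 and 4.56 FPKM (0.242). Adipoq, at a low level, rose from 0.196 to 1.88 FPKM (limma adjusted p = 0.00349) with no overlap between the groups. Plin1, under the filter, was also higher in each cKO library than in each control, at means of 0.0203 and 0.117 FPKM. Macrophage markers (9 of 9) were at 2132 to 2660.2 and 2577 to 3527 FPKM, tendon and ligament markers (5 of 5) at 454 to 760 and 477 to 547 FPKM, and endothelial markers (6 of 6) at 18.4 to 24.0 and 13.6 to 15.6 FPKM. Most of the endothelial sum was Cdh5, at means of 12.8 and 8.74 FPKM, while Vwf, under the filter, was higher in each cKO library than in each control, at means of 0.319 and 0.604 FPKM. Schwann and neural markers (6 of 6) were at 18.6 to 32.0 and 15.8 to 22.8 FPKM. Lymphocyte markers (4 of 6) were at 0.608 to 1.51 and 0.826 to 1.72 FPKM, and erythroid markers (2 of 6) at 0.0771 to 0.124 and 0 to 0.124 FPKM. Of the tested markers limma called 2 of 4 adipocyte and 2 of 6 osteoblast genes higher, 1 of 5 endothelial genes lower, 1 of 4 tendon and ligament genes higher (Mkx) and 1 lower (Tnmd), and 1 of 2 Schwann and neural genes higher (S100b). It called 0 of 5 granulocyte, 0 of 9 macrophage and 0 of 1 lymphocyte genes. At an unadjusted p under 0.05 there were 5 granulocyte, 4 endothelial, 2 adipocyte, 2 osteoblast, 2 tendon and ligament, 1 Schwann and neural, 1 macrophage and 0 lymphocyte genes. With voom there were 2 granulocyte, 4 endothelial, 2 adipocyte, 2 osteoblast, 2 tendon and ligament, 1 Schwann and neural, 0 macrophage and 0 lymphocyte calls. The part of these cells in the levels of the cartilage genes was not tested.

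The genes nearest to Col2a1 in pattern over the 6 libraries, among 7009 genes whose mean reached 5 FPKM, were Glis2 (root mean square difference 0.0938), Porcn (0.108) and Tmem64 (0.119), against a spread of Col2a1 itself of 0.384 on the log2(FPKM + 1) scale. Glis2 was at 23.3, 28.5 and 23.8 FPKM in control replicates 2, 3 and 4 and at 33.8, 36.2 and 43.9 FPKM in cKO replicates 2, 3 and 4. Like Col2a1 it was highest in cKO replicate 4 and, among controls, in control replicate 3, which follows from how it was picked.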

How the data were processed

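RNA of 6 cultures was sequenced. The authors deposited FPKM for 23622 genes. The submitters' processing notes list HTSeq (version 0.6.0) with DESeq2 (version 1.10.1). Aligner and genome build: not given in the sources used here. Of the gene IDs 99.5% matched GENCODE vM21 (GRCm38), used for positions, exons and GC content, and promoters are from RefSeq. Steps in the deposited FPKM gave whole reads (tolerance 1e-06) for 99.86% of the 23427 genes above 0 somewhere. The gene length behind the FPKM equalled the exon union for 77.7%, so levels of other genes, Col2a1 among them, depend on the length used.

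The main test was limma 3.58.1 (R 4.3.3) with an intensity trend, 2-sided, on log2(FPKM + 1) for 13326 genes whose mean reached 0.5 FPKM, with Benjamini-Hochberg adjustment over all of them. Fold changes on that scale understate changes of low genes. Scripts were tested on simulated data. Alternatives were other pseudocounts, filters and scalings, variance settings, library weights, voom on the recovered reads, a loess GC correction (span 0.5), the replicate block, and each library left out. The text names all 10 genes and, per list, up to 4 called genes by size of change or, with none called, the 2 with the smallest p. For likeness, the 3 nearest genes whose mean reached 5 FPKM are named. Members and lists were chosen with earlier results of these data known. Genes listed but without a row were not analysed here. The count of 0 of Sox5 was read against a floor of 3 reads, and counts of 0 of other genes were given without a floor.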

Additional observations from a re-analysis of the deposited data

How the results depend on the processing

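Of 13326 genes limma called 1014, 672 higher and 342 lower in cKO, with 0 of the 10 genes and 18 list genes. The GC correction gave 748 calls, 349 higher and 399 lower, and 13 list genes, and quantile normalization 1169, 609 higher and 560 lower, with 1 of the 10 genes and 21 list genes. Library weights gave 3143 calls, 1765 higher and 1378 lower, with 3 of the 10 genes and 35 list genes. Without a filter there were 511 calls, 327 higher and 184 lower, with 13 list genes, and with voom 1467, 937 higher and 530 lower, with 2 of the 10 genes and 26 list genes. Leaving out 1 library gave 71 to 1000 calls, 45 to 626 higher and 26 to 374 lower, with 3 to 22 list genes and 0 of the 10, and the lowest count was without control replicate 4. The replicate block gave 64 calls, 42 higher and 22 lower, with 4 list genes and 0 of the 10. The block with the GC correction gave 3, 1 higher and 2 lower, with 0 list genes. Deviations of same-numbered libraries correlated at -0.04, -0.05 and 0.03, and those of libraries with different numbers at -0.04 to 0.09. The labels do not say whether the numbers pair the samples, and with 3 libraries a group these correlations cannot settle it. Other settings stayed within 1.5 times of the main counts. Among them, scaling by median ratio could hardly move a result, since its library factors were 0.999 to 1.0019. Of 550 values of 29 single genes over the alternatives, 438 kept their direction and side of the threshold, 96 lost and 16 gained a call, and 0 changed direction. The cause of these shifts was not tested.

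Depth limits Sox5, Col9a3, Acan and Sox6, which rest on 0 to 93 reads per library. With 3 libraries a group, an exact permutation test cannot go below p = 0.1.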
